A study of Mus musculus with 12 samples.

Results

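The genes described here are 51 genes whose products carry out or control mitosis: the spindle checkpoint, the chromosomal passenger complex, the mitotic cyclins with Cdk1 and its kinases and phosphatases, the machinery of sister separation, mitotic kinesins, centromere and kinetochore proteins, spindle and cytokinesis factors, and condensin with topoisomerase. They were chosen by symbol for these roles. Of the 51 genes, 49 were found on the arrays through their RefSeq transcripts, among 17016 genes found in that way, and Ncapg and Mki67 were not analysed here. All 49 passed the filter on dim probes, which 12435 of the genes on the arrays passed, and each of the 49 was well above background on all 12 arrays.

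Messenger RNA was measured in embryonic fibroblasts of the mouse with 1 one-colour array per culture. Focal adhesion kinase (FAK), encoded by Ptk2, is a tyrosine kinase that signals from integrins at the sites where a cell holds the matrix. The 4 groups were dense FAK knockout (KO) cells, sparse KO cells, dense rescue cells and sparse rescue cells, with 3 cultures each, 1 from each of 3 experimental days. Dense dishes of 10 cm were seeded with 8200000 cells and sparse dishes with 410000 cells, and all were harvested after 24 h by trypsin. The rescue line is 1 clone, DA2, derived from FAK knockout cells by putting FAK back, so both lines descend from knockout fibroblasts. As background that the labels do not give, the knockout fibroblasts are known to come from an embryo that also lacked p53, so that both lines would lack it. The medium of rescue cells alone held hygromycin B and non-essential amino acids, and effects of medium and of line cannot be told apart. Whether cultures of different days came from separate thaws is not stated, and the p-values measure the spread between these cultures.

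Mitosis is set off by Cdk1 bound to a B-type cyclin. Kinetochores then attach the chromosomes to the spindle, a checkpoint holds back the anaphase-promoting complex until all are attached, and that complex releases the protease that parts the sisters. Most genes of this machinery are transcribed late in the cell cycle and are silent in cells that have left it, so their RNA in a culture is widely read as a mark of dividing cells. Normal fibroblasts stop dividing when they touch their neighbours. In RNA from whole cultures, fewer dividing cells and less RNA per dividing cell cannot be told apart.

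Values are log2 signals relative to the 75th percentile of their own array, so 0 is the level that 75% of probes lie under, and the levels of different genes are not compared because each comes from its own probe. Values of 3 cultures are given in the order of days 1 to 3. A gene was called where limma's p, adjusted by Benjamini and Hochberg over all 12435 genes, was under 0.05. The arrays had median signals of 18.8 to 80.1 intensity units, with 23150 to 26183 probes well above background. The deposited table of processed values was not used for the results below: its 4 columns for day 3 each matched best the scanner file of the other line at the same density (correlation over probes 0.972 to 0.984, against 0.833 to 0.874 with the scanner file of the same label), while the other 8 columns matched their own (0.980 to 0.987). The brighter of the probes for Ptk2 read 0.50, 0.33 and 0.03 in dense KO cells, 0.18, 0.07 and 0.36 in sparse KO cells, 0.39, 0.34 and 0.34 in dense rescue cells and 0.08, 0.38 and 0.48 in sparse rescue cells, with neither difference between the lines called (adjusted p = 0.747 dense, 0.632 sparse). The dimmer one read −1.88, −1.61 and −1.33 in dense KO cells, −1.76, −1.25 and −1.10 in sparse KO cells, −0.97, −0.89 and −0.17 in dense rescue cells and 0.65, 0.23 and 1.24 in sparse rescue cells, lower on every KO than on every rescue array. Whether these probes lie within the deletion is not known here, so neither probe checks the labels. Of 8 fibroblast markers 7 were well above background on all arrays of each group, and Thy1 was well above it on 1 array only, of dense KO cells.

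The mitosis genes stood apart in 1 of the 4 groups: dense rescue cells had the lowest mean for 48 of the 49 genes, and for 44 of them all 3 dense rescue arrays lay below all of the other 9 arrays. The 5 genes that did not were Cdc25b, Pttg1, Kif4, Hmmr and Smc4. The shares of all genes with a lowest mean, or all 3 arrays lowest, in dense rescue cells were not computed. How unusual these counts are is therefore not known, and the pairwise counts below are given with their shares. In dense cells 48 of the 49 genes were higher in KO than in rescue and 0 were lower (0 also at an unadjusted p under 0.05 in the limma fit), where 31.9% of all genes tested were called higher and 29.7% lower (61.6% in all). For 46 of the 49 all 3 dense KO arrays lay above all 3 dense rescue arrays, the others being Pttg1, Kif4 and Hmmr, where 34.7% of all genes did so. The median difference was 2.05 on the log2 scale, a fold of 4.14, beside 0.08 over all genes tested. In sparse cells the same contrast called 11 genes higher and 2 lower, where 23.2% of all genes were called higher and 25.6% lower, with a median of 0.18. The sparse counts turned on the setting: 3 higher and 3 lower with median scaling, where the median of the 49 was −0.13, 3 and 1 with normexp correction, and 6 and 0 with slide as a block. Of all genes 46.9%, 29.4% and 35.5% were called in either direction under these settings. Of the 11 genes called higher, Ncapd2 and Spc24 were called under all 3 of these. The dense count was 46 with slide as a block, where 51.7% of all genes were called in either direction. The highest mean of a gene fell in dense KO cells for 20 genes, in sparse KO cells for 16, in dense rescue cells for 1 and in sparse rescue cells for 12.

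**Figure D1:**
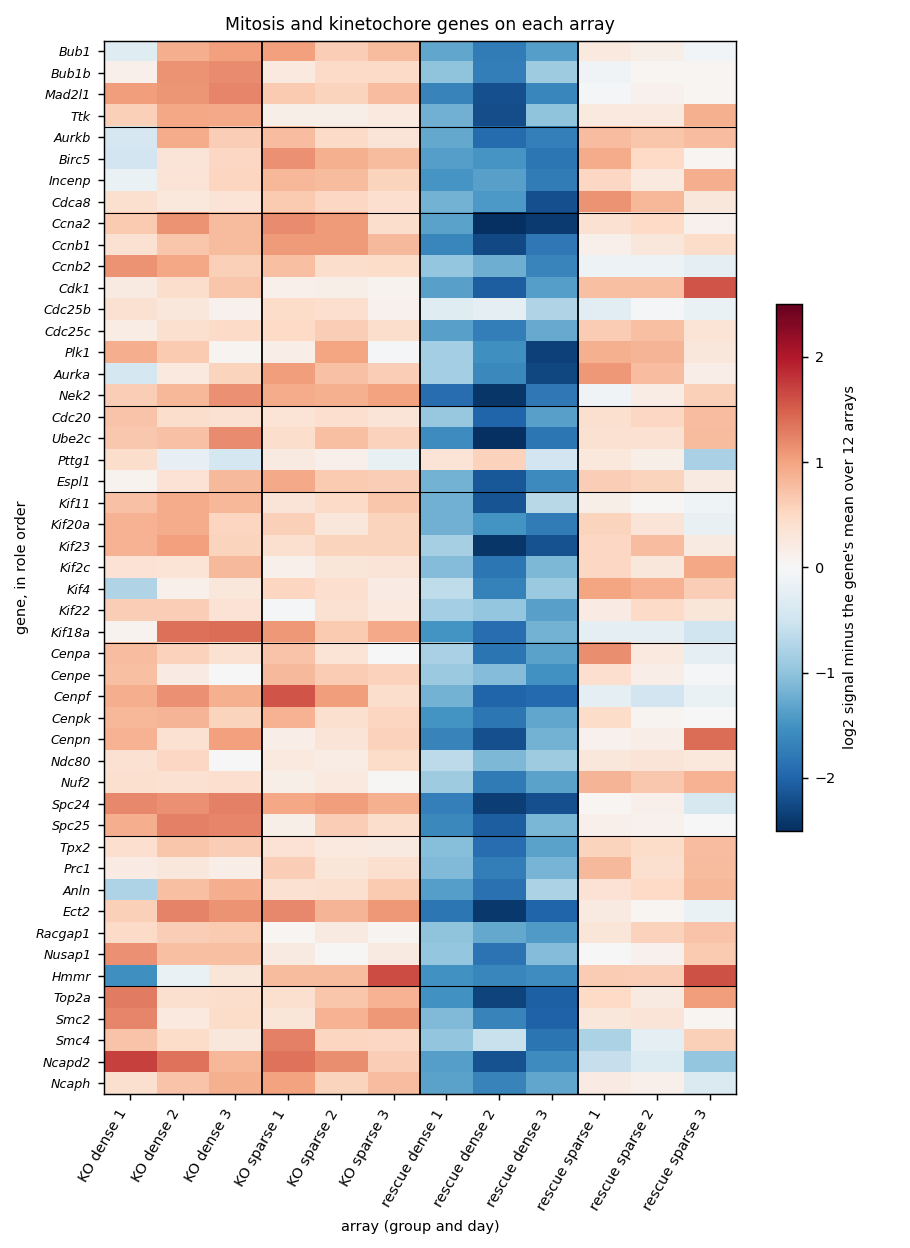
Log2 signal of the 49 mitosis and kinetochore genes (rows, in role order) on each of 12 arrays (columns, by group and day), as the difference from each gene's mean over the arrays. Red is above and blue below that mean, and the 3 dense rescue arrays are blue in nearly every row, Pttg1 and Cdc25b being the plainest exceptions.

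The response to seeding density was then compared within each line. In KO cells 0 of the 49 genes were higher and 1, Hmmr, was lower in dense than in sparse cultures, where limma called 5.44% of all genes higher and 5.47% lower. The median change was 0.05, beside −0.00 over all genes, 42 of the 49 changed by under 0.5 either way, and the 95% intervals of 42 spanned 0. Those 42 intervals reach from −1.49 (Aurka) to 1.18 (Cenpn), so changes within these bounds remain possible. At an unadjusted p under 0.05 the same limma fit held 5 genes higher and 2 lower. The count depends on the probe: on the second brightest probe, kept for 17 genes, 0 were called higher and 3 lower. On that probe 19.1% of all 4466 genes that had one were called in either direction. In a limma fit of all kept probes the second probes of Ect2 (−1.76, adjusted p = 0.00304), Kif11 (−1.22, adjusted p = 0.0126) and Top2a (−0.95, adjusted p = 0.0413) were lower in dense KO cells. All 3 dense KO arrays lay above all 3 sparse KO arrays for 11 genes and below them for 7, where each was so for 19.1% of all genes. In rescue cells 46 of the 49 genes fell in dense cultures and 0 rose (0 also at an unadjusted p under 0.05), where limma called 21% of all genes lower and 19% higher (40% in all). All 3 dense arrays of rescue cells lay below all 3 sparse ones for 46 genes, where 26.3% of all genes did so. The median fall there was −1.93, a fold of 3.80, and all 46 fell by at least 2-fold, 22 of them by at least 4-fold. The 3 genes not called were Cdc25b, Pttg1 and Smc4.

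The difference between these responses was itself tested, as dense minus sparse in KO cells minus the same in rescue cells. It was positive and called for 39 of the 49 genes and negative and called for 0 (0 also at an unadjusted p under 0.05 in the limma fit), where 11.3% of all genes were called positive and 9.47% negative. Its median was 1.86 on the log2 scale. The 10 genes that did not pass were Bub1, Birc5, Cdc25b, Aurka, Pttg1, Kif18a, Cenpe, Anln, Hmmr and Smc4, with values of −0.40 (Pttg1) to 1.72 (Anln). Each contrast shares arrays with others, so these counts are different views of the same 12 cultures.

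**Figure D2:**
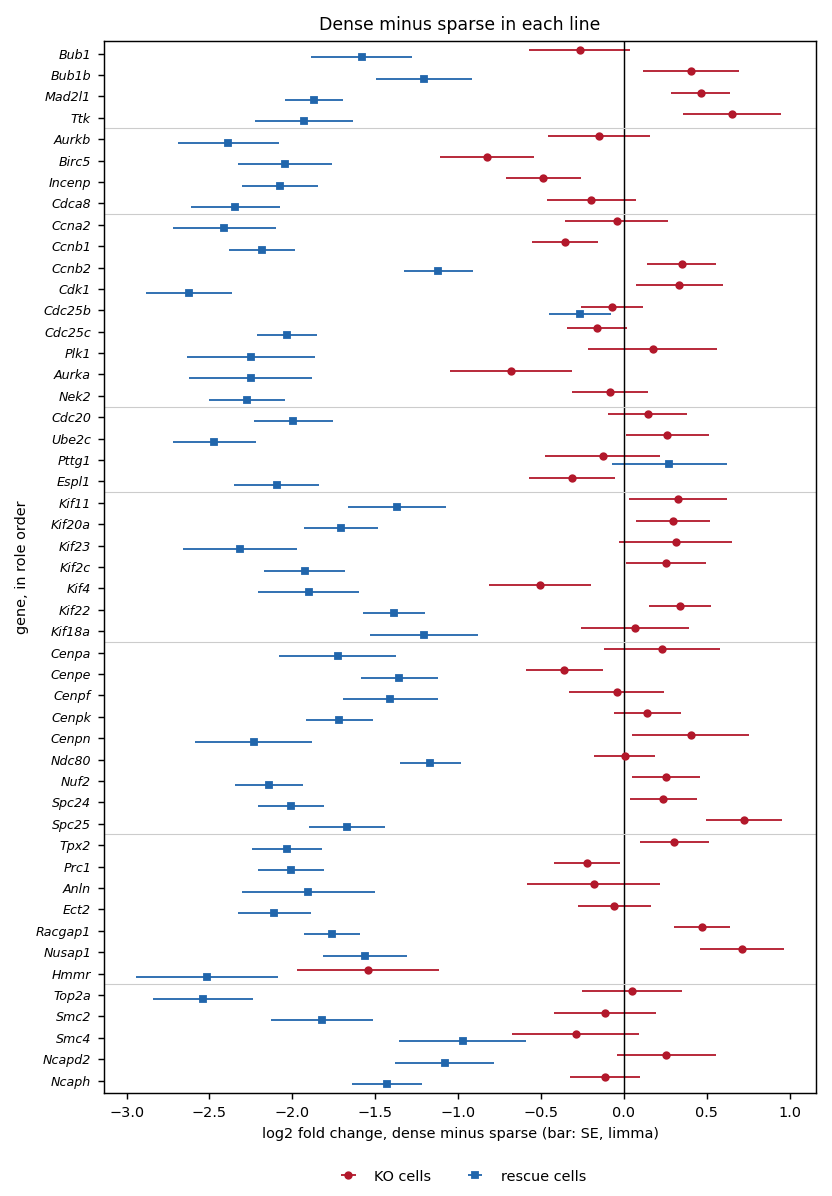
Log2 fold change between dense and sparse cultures for each of the 49 genes (rows, in role order), in KO cells (red circles) and rescue cells (blue squares), with the standard error of the limma fit as a bar. The KO values cluster about 0, with Hmmr at −1.54 the farthest from it, and the rescue values lie between −2.62 and 0.28 with Pttg1 alone above 0.

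The same contrasts were read within each day. Within a day the median of KO minus rescue over the 49 genes in dense cells was 1.65 on day 1, 2.48 on day 2 and 2.21 on day 3, and in sparse cells 0.06, 0.18 and 0.28 on those days. Dense minus sparse within a day had medians of 0.06, 0.10 and 0.13 in KO cells and of −1.72, −2.19 and −1.84 in rescue cells. On each day Pttg1 was the 1 gene of the 49 above 0 in rescue cells. On every day the dense and the sparse array of 1 line lay on 1 slide, so the density values are all within a slide. The lines lay on 1 slide only on day 2; on days 1 and 3 slide and line cannot be told apart. With the level set by 6 spike-in probes, the median of all genes moved to −1.52 for KO minus rescue in sparse cells, 0.90 in dense cells, 3.09 for dense minus sparse in KO cells and 0.65 in rescue cells. Relative to those medians the median of the mitosis genes was 0.15, 1.97, 0.05 and −1.85 in the same order, as with the 75th percentile. Both scalings take 1 value from all probes of an array, so this match was fixed in advance and is no support for the result. The directions given above for sparse cells and for density in KO cells are relative to the rest of the RNA. With the spike-in level 35 genes were lower in sparse KO cells, where 76.1% of all genes were called in either direction. All 49 were higher in dense than in sparse KO cells, where 99.5% of all genes were called in either direction. These counts are near those shares and are no result about the mitosis genes. At that level 23 genes, in place of 46, were lower in dense than in sparse rescue cells (median −1.20), where 27.6% of all genes were called in either direction. In dense cells 48 were higher in KO than in rescue (median 2.87), where 55.9% of all genes were called in either direction. The interaction had a median of 4.23 with all 49 called, but 86.9% of all genes were called there too, with a median of 2.42.

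The promoters of 5 genes are shown because they span the response: Cdk1, Ube2c and Kif23 fell by at least 4-fold in dense rescue cells, and Cdc25b and Pttg1 were among the 3 that did not pass. Each is the RefSeq promoter window of 300 bases, which ends 50 bases after the start of the gene, 5′ to 3′ on the gene's strand, on GRCm38.p6. Capitals mark CCAAT on either strand, the letters bound by the factor NF-Y. They also mark TTTGAA on either strand and its variant with the letters TTCGAA, which are letters of the cell cycle homology region, at which the repressor complex DREAM and the activators B-Myb and FoxM1 are known to act on late cell cycle genes. Their places are chr10:69352863-69353162 (minus strand, Cdk1), chr2:164769679-164769978 (plus strand, Ube2c), chr9:61946750-61947049 (minus strand, Kif23), chr2:131186698-131186997 (plus strand, Cdc25b) and chr11:43425932-43426231 (minus strand, Pttg1).
Cdk1: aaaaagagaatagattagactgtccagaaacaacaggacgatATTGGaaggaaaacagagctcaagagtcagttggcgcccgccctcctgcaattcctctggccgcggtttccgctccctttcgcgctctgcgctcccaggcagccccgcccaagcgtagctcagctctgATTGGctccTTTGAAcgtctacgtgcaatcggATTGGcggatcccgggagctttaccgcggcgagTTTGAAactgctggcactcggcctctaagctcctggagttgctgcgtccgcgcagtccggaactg
Ube2c: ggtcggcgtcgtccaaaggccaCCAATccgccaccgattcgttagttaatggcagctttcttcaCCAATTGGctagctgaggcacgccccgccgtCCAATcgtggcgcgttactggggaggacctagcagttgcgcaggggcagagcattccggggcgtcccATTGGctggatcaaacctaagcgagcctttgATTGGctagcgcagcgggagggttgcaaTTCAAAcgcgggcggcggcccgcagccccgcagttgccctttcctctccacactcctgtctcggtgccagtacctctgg
Kif23: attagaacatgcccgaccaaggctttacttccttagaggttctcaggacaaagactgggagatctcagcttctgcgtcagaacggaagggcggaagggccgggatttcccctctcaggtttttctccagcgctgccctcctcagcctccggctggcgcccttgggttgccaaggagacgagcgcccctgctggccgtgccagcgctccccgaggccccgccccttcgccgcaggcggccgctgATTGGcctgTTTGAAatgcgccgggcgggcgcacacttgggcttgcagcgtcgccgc
Cdc25b: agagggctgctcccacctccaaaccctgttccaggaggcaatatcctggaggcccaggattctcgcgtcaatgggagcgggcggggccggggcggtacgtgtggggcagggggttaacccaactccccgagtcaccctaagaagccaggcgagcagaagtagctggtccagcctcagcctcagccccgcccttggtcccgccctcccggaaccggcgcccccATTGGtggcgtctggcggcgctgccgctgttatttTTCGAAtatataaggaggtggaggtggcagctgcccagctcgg
Pttg1: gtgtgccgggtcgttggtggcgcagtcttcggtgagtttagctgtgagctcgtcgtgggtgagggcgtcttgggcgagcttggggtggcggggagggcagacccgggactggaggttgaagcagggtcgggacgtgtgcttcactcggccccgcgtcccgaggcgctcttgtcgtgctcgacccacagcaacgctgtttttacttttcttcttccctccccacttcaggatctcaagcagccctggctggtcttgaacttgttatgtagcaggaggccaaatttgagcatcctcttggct

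Promoters were found for 43 of the 51 genes, and Aurkb, Incenp, Ccna2, Cdc25c, Kif20a, Spc24, Tpx2 and Smc4 had none in the table used. Searched on both strands, TTTGAA or TTCGAA stood in 32 of the 43 (74.4%), against 19.4% of 27025 promoters of the same length, and CCAAT stood in 33 (76.7%), against 37.9%. Among 106 promoters of other mitosis genes the shares were 41.5% and 50.9%, and among 28 promoters of DNA replication genes 21.4% and 60.7%. Both together stood in 29 (67.4%), against 7.70% of all promoters, 24.5% of those of other mitosis genes and 17.9% of those of replication genes. For 2 or more CCAAT, overlaps of the letters included, the share was 46.5%, against 12.2% of all, 30.2% of other mitosis and 32.1% of replication promoters. The letters GGGCGG, also searched, stood in 34 (79.1%), against 35.9% of all, 64.2% of other mitosis and 71.4% of replication promoters. In Cdk1 the nearest such letters were 48 bases (CCAAT, as its reverse complement) and 15 bases (TTTGAA) before the start. In Ube2c the window held 6 CCAAT, counting both strands. Letters of E2F sites, TTTCCCGC or TTTGGCGC, stood in 3 of the 43 (6.98%), against 1.63% of all promoters, 10.4% of those of other mitosis genes and 35.7% of those of DNA replication genes. Set beside the response, the median KO minus rescue in dense cells was 2.04 for 30 tested genes with TTTGAA or TTCGAA and 2.18 for 11 without, and dense minus sparse in rescue cells had medians of −1.91 and −1.72. Cdc25b has both sets of letters and did not pass in rescue cells. Pttg1 has neither, and so do Mad2l1, Birc5, Nuf2, Nusap1, Ncaph and Kif18a, all of which fell in dense rescue cells.

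The spindle checkpoint genes Bub1, Bub1b, Mad2l1 and Ttk encode kinases and an inhibitor that sense unattached kinetochores. All 4 were higher in dense KO than in dense rescue cells (2.01 to 2.96 on the log2 scale), and all 4 fell in dense rescue cultures (−1.93 to −1.20). Mad2l1, whose product binds and holds back Cdc20, had log2 signals of 2.91, 2.96 and 3.08 in dense KO cells and 0.19, −0.34 and 0.23 in dense rescue cells. The difference was 2.96 ± 0.18 (SE, adjusted p = 3.98e-08), and the groups were far apart. In sparse cultures Mad2l1 had 2.52, 2.42 and 2.63 in KO cells and 1.82, 1.97 and 1.90 in rescue cells. That smaller difference, 0.62 ± 0.18 (SE, adjusted p = 0.0118), was called, and no other checkpoint gene was called in sparse cells. It was not called with normexp, median scaling, slide as a block or the deposited table without day 3 (0.32 to 0.71, adjusted p 0.0728 to 0.327). Bub1b, which encodes the checkpoint protein BubR1, had 2.42, 3.41 and 3.49 in dense KO cells and 1.30, 0.58 and 1.40 in dense rescue cells with no overlap, a difference of 2.01 ± 0.29 (SE, adjusted p = 7.6e-05).

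Of the chromosomal passenger complex, which corrects faulty attachments and steers cytokinesis, all 4 genes were higher in dense KO than in dense rescue cells (1.66 to 2.01) and 0 were called in sparse cells, where 0 had an unadjusted p under 0.05 in the limma fit. Aurkb, the kinase of the complex, had 0.35, 1.69 and 1.39 in dense KO cells and −0.51, −1.16 and −0.94 in dense rescue cells. Dense KO cells of day 1 were lower than those of days 2 and 3, yet above all 3 dense rescue cultures. In sparse cultures Aurkb had 1.55, 1.25 and 1.08 in KO cells and 1.54, 1.46 and 1.54 in rescue cells, which overlapped. Birc5, which encodes survivin, had 5.25, 6.06 and 6.25 in dense KO cells, 6.88, 6.63 and 6.53 in sparse KO cells, 4.37, 4.27 and 3.94 in dense rescue cells and 6.67, 6.24 and 5.80 in sparse rescue cells. Its values were lower in dense than in sparse cultures of both lines, with −0.83 ± 0.28 (SE, adjusted p = 0.0845) in KO cells, and −2.04 ± 0.28 (SE, adjusted p = 0.000184) in rescue cells, where alone it was called. The difference between these changes was 1.21 ± 0.40 (SE, adjusted p = 0.0516) and missed the threshold. It was called without the dense KO array of day 1 (1.51, adjusted p = 0.0119) or without the sparse rescue array of day 3 (1.43, adjusted p = 0.0286).

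Among the cyclins, Cdk1 and its kinases and phosphatases, all 9 genes were higher in dense KO than in dense rescue cells. Cdk1, the kinase that starts mitosis, had 3.47, 3.68 and 3.93 in dense KO cells, 3.36, 3.39 and 3.32 in sparse KO cells, 1.88, 1.18 and 1.87 in dense rescue cells and 4.0, 3.99 and 4.81 in sparse rescue cells. Dense rescue cells were lowest and sparse rescue cells highest, and none of the 4 groups overlapped. Dense minus sparse was 0.34 ± 0.26 in KO cells (SE, adjusted p = 0.441) and −2.62 ± 0.26 in rescue cells (SE, adjusted p = 2.13e-05), the largest fall of the 49 genes. In sparse cells Cdk1 was lower in KO than in rescue (−0.91 ± 0.26, SE, adjusted p = 0.0127). A second probe for Cdk1 gave the opposite sign there (0.88, adjusted p = 0.0438 in the fit of all probes), and with slide as a block the brighter probe was not called (−0.53, adjusted p = 0.211), so the direction of Cdk1 in sparse cells is not settled, while both probes had 1 sign for the lines in dense cells and for density in rescue cells.

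Ccna2, an A-type cyclin of replication and early mitosis, had 4.11, 4.59 and 4.26 in dense KO cells and 2.14, 0.95 and 1.08 in dense rescue cells, the largest difference of these 9 genes (2.93 ± 0.31, SE, adjusted p = 5.75e-06). Ccnb1, the main B-type partner of Cdk1, had 2.50, 2.80 and 2.91 in dense KO cells and 0.48, −0.14 and 0.33 in dense rescue cells. It was also called higher in sparse KO cells (3.18, 3.17 and 2.92) than in sparse rescue cells (2.24, 2.40 and 2.58), by 0.69 ± 0.20 (SE, adjusted p = 0.0136). That call was lost without the sparse rescue array of day 1 (0.60, adjusted p = 0.0504), with normexp (0.57, adjusted p = 0.111) and with median scaling (0.38, adjusted p = 0.265). Plk1, a kinase that activates Cdk1 and builds the spindle poles, had 5.65, 5.40 and 4.81 in dense KO cells and 3.90, 3.22 and 2.41 in dense rescue cells, with a fall of −2.25 ± 0.39 (SE) by density in rescue cells. Nek2, Ccnb2, Aurka and Cdc25c were called higher in KO cells in dense cultures. In sparse cultures Nek2 (0.71 ± 0.23, SE, adjusted p = 0.0228) and Ccnb2 (0.72 ± 0.21, SE, adjusted p = 0.0135) were called too. Both calls were lost with median scaling (adjusted p = 0.288 for Nek2, 0.201 for Ccnb2) and with normexp (0.312 and 0.162), and that of Ccnb2 also with slide as a block (0.0831). Leaving out 1 array lost the call of Nek2 in 4 of 12 fits (0.55 to 0.72, adjusted p 0.0518 to 0.0916) and that of Ccnb2 without the sparse KO array of day 1 (0.62, adjusted p = 0.0549).

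Cdc25b, a phosphatase that activates Cdk1, was the gene of this group that responded least. Its log2 signals were 3.26, 3.16 and 2.98 in dense KO cells, 3.33, 3.29 and 2.99 in sparse KO cells, 2.58, 2.65 and 2.13 in dense rescue cells and 2.61, 2.85 and 2.70 in sparse rescue cells. KO cells lay above rescue cells at both densities with no overlap, by 0.68 ± 0.19 in dense cells (SE, adjusted p = 0.00716) and 0.49 ± 0.19 in sparse cells (SE, adjusted p = 0.0472). The change with density in rescue cells was −0.26, with a 95% interval of −0.67 to 0.14. The sparse call rested on single arrays and on the processing. It was lost in 8 of the 12 fits that leave out 1 array, namely sparse KO of day 1 or 2, dense KO of day 2 or 3, any sparse rescue array, or dense rescue of day 1, with values of 0.42 to 0.55 and adjusted p of 0.0536 to 0.137. It was also lost with median scaling (0.19, adjusted p = 0.533) and normexp (0.18, adjusted p = 0.582). The same held with the mean of probes (0.44, adjusted p = 0.102) and with no filter on dim probes (0.49, adjusted p = 0.0718). The dense call was lost with normexp (0.49, adjusted p = 0.0988), with slide as a block (0.58, adjusted p = 0.079) and on the second probe (0.75, adjusted p = 0.0615). The third probe gave 0.19 for that difference (adjusted p = 0.637 in the fit of all probes).

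Sister separation gave the 1 gene of the 49 that did not pass the test between the lines in dense cells. Pttg1 encodes securin, which binds and inhibits the protease separase until anaphase. Its log2 signals were 3.71, 3.07 and 2.85 in dense KO cells, 3.51, 3.40 and 3.10 in sparse KO cells, 3.61, 3.85 and 2.81 in dense rescue cells and 3.55, 3.43 and 2.47 in sparse rescue cells. All 4 groups overlapped, and the values of day 3 were the lowest in each group. KO minus rescue in dense cells was −0.21 ± 0.35 (SE, adjusted p = 0.614), with a 95% interval of −0.97 to 0.54, and the upper bound lies below the differences of all other genes of the 49. Dense minus sparse in rescue cells was 0.28 ± 0.35 (SE, adjusted p = 0.557), with an interval of −0.48 to 1.03.

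The other 3 genes of sister separation were all higher in dense KO than in dense rescue cells. Espl1, which encodes separase, differed by 2.05 ± 0.26 (SE, adjusted p = 2.54e-05). Ube2c, the ubiquitin-conjugating enzyme of the anaphase-promoting complex, had 5.14, 5.19 and 5.65 in dense KO cells, 4.91, 5.22 and 5.05 in sparse KO cells, 2.89, 1.96 and 2.66 in dense rescue cells and 4.84, 4.84 and 5.25 in sparse rescue cells. The other 3 groups lay close together and dense rescue cells far below them, and KO minus rescue was 2.82 ± 0.25 in dense cells (SE, adjusted p = 1.24e-06) and 0.08 ± 0.25 in sparse cells (SE, adjusted p = 0.805). Cdc20, the activator that the checkpoint restrains, differed by 1.94 ± 0.24 (SE) in dense cells.

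**Figure D3:**
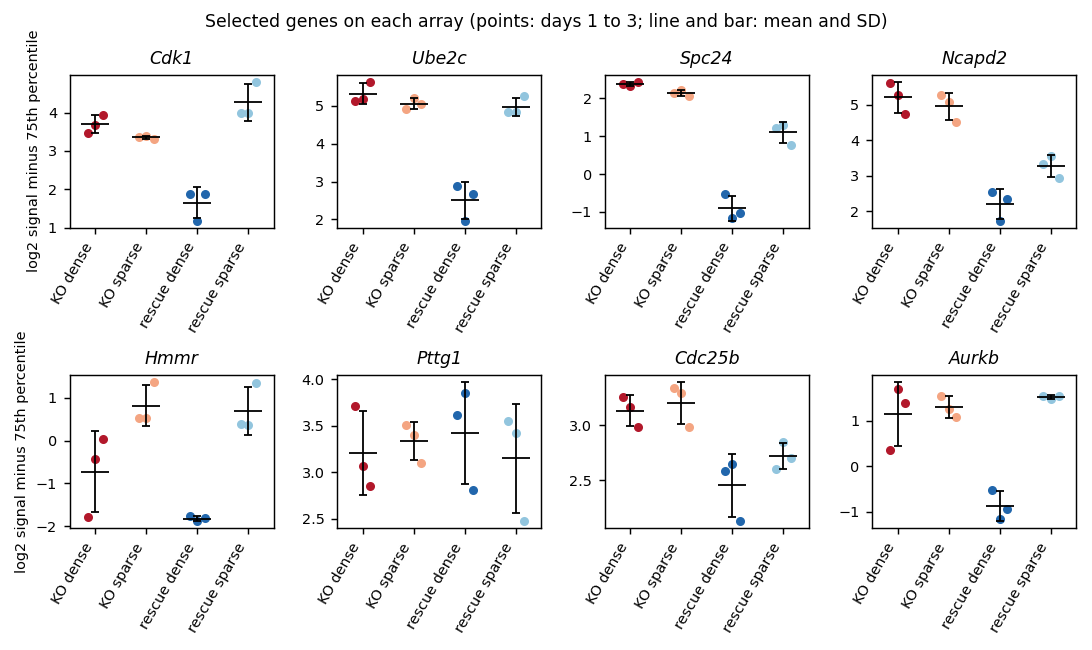
Log2 signal relative to the array's 75th percentile (vertical axis, its own range in each panel) of 8 genes in dense KO, sparse KO, dense rescue and sparse rescue cells. Points are the 3 cultures of days 1 to 3, the line is the mean and the bar the SD: Cdk1, Ube2c, Spc24 and Aurkb are lowest in dense rescue cells, Ncapd2 and Cdc25b are lower in both rescue groups, Hmmr is lower in dense cells of both lines, and the groups of Pttg1 overlap.

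All 7 mitotic kinesins were higher in dense KO than in dense rescue cells, and all 7 fell in dense rescue cultures. Kif23, the motor of the central spindle, had 2.37, 2.52 and 2.05 in dense KO cells and 0.66, −0.93 and −0.68 in dense rescue cells, where the culture of day 1 stood above those of days 2 and 3. In sparse cultures it had 1.90, 2.06 and 2.05 in KO cells and 2.02, 2.26 and 1.72 in rescue cells, so the lines overlapped there and were 2.63 ± 0.34 apart in dense cells (SE, adjusted p = 3.39e-05). Kif4, a motor that rides on chromosome arms, differed least of the 7, with 1.46, 2.34 and 2.49 in dense KO cells and 1.58, 0.53 and 1.29 in dense rescue cells. The dense KO culture of day 1 lay below the dense rescue culture of that day, and the difference of 0.96 ± 0.31 (SE, adjusted p = 0.0169) was not called without the dense KO array of day 2 (0.84, adjusted p = 0.0616) or of day 3 (0.76, adjusted p = 0.0724), or without the dense rescue array of day 2 (0.66, adjusted p = 0.0745), or with normexp (0.54, adjusted p = 0.253). Kif18a, which limits the length of kinetochore fibres, was the 1 kinesin called in sparse cells too, by 1.21 ± 0.32 (SE, adjusted p = 0.00854). That call was lost with median scaling (0.91, adjusted p = 0.0731), normexp (1.01, adjusted p = 0.0693) and slide as a block (1.44, adjusted p = 0.0509).

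At the centromere and kinetochore all 9 genes were higher in dense KO than in dense rescue cells, by 1.18 to 3.29. The 4 subunits of the Ndc80 complex, which grips the microtubule end, were all among them but differed in sparse cells. Spc24 had 2.38, 2.32 and 2.45 in dense KO cells, 2.15, 2.22 and 2.06 in sparse KO cells, −0.53, −1.17 and −1.02 in dense rescue cells and 1.22, 1.30 and 0.78 in sparse rescue cells. Its difference of 3.29 ± 0.20 in dense cells (SE, adjusted p = 4.76e-08) was the largest of the 49 genes, and KO cells were above rescue cells in sparse cultures as well (1.04 ± 0.20, SE, adjusted p = 0.00103). Nuf2 had 2.46, 2.45 and 2.48 in dense KO cells, 2.23, 2.31 and 2.11 in sparse KO cells, 1.17, 0.30 and 0.72 in dense rescue cells and 2.93, 2.75 and 2.94 in sparse rescue cells. In sparse cells Nuf2 was lower in KO (−0.66 ± 0.20, SE, adjusted p = 0.0188), a call lost without the sparse KO array of day 3 (−0.60, adjusted p = 0.0626) or the sparse rescue array of day 1 (−0.63, adjusted p = 0.0517), with normexp (−0.72, adjusted p = 0.109) and with slide as a block (−0.34, adjusted p = 0.354).

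Ndc80 itself had 1.29, 1.41 and 0.90 in dense KO cells and 0.26, −0.22 and 0.02 in dense rescue cells, the smallest difference of the kinetochore genes (1.18 ± 0.18, SE, adjusted p = 0.000142). Sparse cells had 1.14, 1.10 and 1.35 in KO cultures and 1.18, 1.22 and 1.16 in rescue cultures, a difference of 0.01 ± 0.18 (SE). Spc25 differed by 2.73 ± 0.23 in dense cells and 0.33 ± 0.23 in sparse cells (SE), of which the dense difference was called. Cenpf, a large kinetochore protein that accumulates before mitosis, was called higher in KO cells at both densities, by 2.69 ± 0.29 in dense cells (SE, adjusted p = 6.18e-06) and 1.32 ± 0.29 in sparse cells (SE, adjusted p = 0.00233), where the call was lost with normexp (0.85, adjusted p = 0.0841). Cenpa, the histone variant that marks the centromere, differed by 1.91 ± 0.35 in dense cells (SE, adjusted p = 0.000524).

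The 7 genes of spindle assembly and cytokinesis were all higher in dense KO than in dense rescue cells, and all 7 fell in dense rescue cultures. Ect2, the exchange factor that turns on RhoA at the cleavage furrow, had 2.62, 3.27 and 3.15 in dense KO cells, 3.23, 2.88 and 3.10 in sparse KO cells, 0.22, −0.38 and 0.03 in dense rescue cells and 2.25, 2.07 and 1.87 in sparse rescue cells. KO cells were above rescue cells by 3.06 ± 0.22 in dense cultures (SE, adjusted p = 2.19e-07) and by 1.01 ± 0.22 in sparse cultures (SE, adjusted p = 0.00259). The sparse call was lost with median scaling (0.71, adjusted p = 0.0703) and on the deposited table without day 3 (0.80, adjusted p = 0.108). A second probe for Ect2 gave 2.61 and 1.61 for these differences, but gave a fall of −1.76 by density in KO cells (adjusted p = 0.00304 in the fit of all probes), where the brighter probe gave −0.06 ± 0.22 (SE). For the difference between the density responses the second probe gave 1.00 and was not called (adjusted p = 0.0894 in the fit of all probes). Tpx2, Prc1, Racgap1, Nusap1 and Anln differed by 1.56 to 2.18 in dense cells.

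Hmmr, a spindle protein also known as a receptor for hyaluronan, was the 1 gene called lower in dense than in sparse KO cells. It had −1.79, −0.42 and 0.03 in dense KO cells, 0.54, 0.54 and 1.37 in sparse KO cells, −1.77, −1.89 and −1.82 in dense rescue cells and 0.38, 0.35 and 1.34 in sparse rescue cells. The dense KO culture of day 1 lay within the dense rescue values and those of days 2 and 3 above them. Dense minus sparse was −1.54 ± 0.43 in KO cells (SE, adjusted p = 0.0411) and −2.51 ± 0.43 in rescue cells (SE, adjusted p = 0.000739), and the difference between them was 0.97 ± 0.61 (SE, adjusted p = 0.281). The KO call held in 2 of the 12 fits that leave out 1 array, those without dense KO of day 3 or sparse rescue of day 3, and was lost in the other 10, with values of −1.69 to −1.01 and adjusted p of 0.0508 to 0.136. Between the lines in dense cells Hmmr differed by 1.10 ± 0.43 (SE, adjusted p = 0.0423), a call lost without sparse KO of day 1, dense KO of day 2 or 3, or any dense rescue array (0.72 to 1.13, adjusted p 0.0502 to 0.178), and with normexp (0.69, adjusted p = 0.22). Without the dense KO array of day 1 the test between the density changes of the lines was passed (1.50, adjusted p = 0.0411).

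Of chromosome structure, the 5 genes measured were all higher in dense KO than in dense rescue cells. Ncapd2, a subunit of condensin, had 5.63, 5.27 and 4.74 in dense KO cells, 5.27, 5.07 and 4.52 in sparse KO cells, 2.54, 1.73 and 2.34 in dense rescue cells and 3.34, 3.56 and 2.95 in sparse rescue cells. KO cells were above rescue cells with no overlap at both densities, by 3.01 ± 0.30 in dense cells (SE, adjusted p = 3.31e-06) and 1.67 ± 0.30 in sparse cells (SE, adjusted p = 0.000599), the largest sparse difference of the 49 genes. Its fall with density in rescue cells, −1.08 ± 0.30 (SE, adjusted p = 0.0131), was lost without the dense rescue array of day 2 (−0.85, adjusted p = 0.054) and with normexp (−0.82, adjusted p = 0.185). Ncaph, another condensin subunit, differed by 2.11 ± 0.21 in dense cells and 0.79 ± 0.21 in sparse cells (SE), both called. The sparse call was lost with median scaling (0.49, adjusted p = 0.174), normexp (0.34, adjusted p = 0.322) and slide as a block (0.76, adjusted p = 0.113).

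Smc4, an ATPase of condensin, had 4.25, 4.0 and 3.82 in dense KO cells, 4.80, 4.09 and 4.06 in sparse KO cells, 2.56, 2.99 and 1.72 in dense rescue cells and 2.76, 3.30 and 4.13 in sparse rescue cells. The rescue values were spread widely at both densities and overlapped, and dense minus sparse there was −0.97 ± 0.38 (SE, adjusted p = 0.0617). It was called without the sparse rescue array of day 1 (−1.29, adjusted p = 0.0256) or the dense rescue array of day 2 (−1.26, adjusted p = 0.0329). In dense cells KO minus rescue was 1.60 ± 0.38 (SE, adjusted p = 0.00313), which was not called with slide as a block (1.24, adjusted p = 0.103). In sparse cells it was 0.92 ± 0.38 (SE, adjusted p = 0.0652), and it was called without the sparse rescue array of day 3 (1.29, adjusted p = 0.0153) or the dense rescue array of day 3 (0.92, adjusted p = 0.0419). Top2a, the topoisomerase that untangles sister chromatids, had 3.35, 2.47 and 2.49 in dense KO cells and 0.54, −0.25 and 0.01 in dense rescue cells, with no overlap and a difference of 2.67 ± 0.30 (SE, adjusted p = 1.06e-05). By density in KO cells its brighter probe gave 0.05 ± 0.30 (SE) and its second probe −0.95 (adjusted p = 0.0413 in the fit of all probes).

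**Figure D4:**
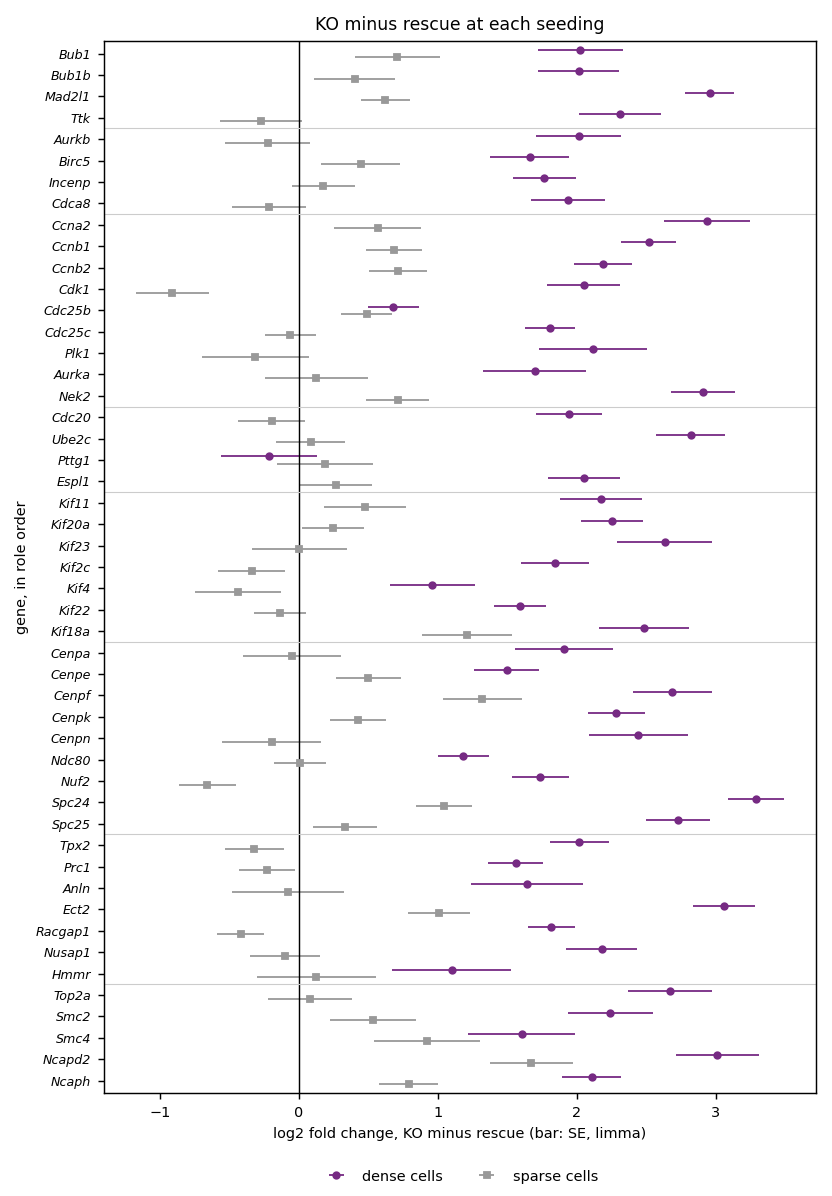
Log2 fold change of KO minus rescue for each of the 49 genes (rows, in role order), in dense cells (purple circles) and sparse cells (grey squares), with the standard error of the limma fit as a bar. Dense values reach 3.29 (Spc24) with Pttg1 at −0.21 alone below 0, and sparse values lie between −0.91 (Cdk1) and 1.67 (Ncapd2).

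Across the 17 genes with several kept probes, all probes of a gene had 1 sign for all 17 in KO minus rescue in dense cells and for all 17 in dense minus sparse in rescue cells. That was so for 12 in KO minus rescue in sparse cells and for 11 in dense minus sparse in KO cells. Of the 17, Cdk1 in sparse cells was the 1 gene with probes called in opposite directions. The spread between cultures was widest in dense rescue cells, where the median SD over the 49 genes was 0.405, against 0.247 in dense KO cells, 0.171 in sparse KO cells and 0.238 in sparse rescue cells.

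A further 123 genes of mitosis, listed by complex, were set beside these, and 113 of them were tested. In dense cells 82 were higher and 8 lower in KO than in rescue (median 1.57), where 31.9% of all genes were higher and 29.7% lower. In rescue cells 75 fell and 3 rose in dense cultures (median −1.23), where 21% of all genes fell and 19% rose. In KO cells 4 rose and 0 fell with density, where 5.44% of all genes rose and 5.47% fell, and 17 were higher and 6 lower at an unadjusted p under 0.05 in the limma fit. Cep55, which recruits the machinery of abscission, had the largest dense difference (4.10 ± 0.27, SE, adjusted p = 9.44e-08), followed by the spindle motor Kif15 (3.40 ± 0.27, SE) and the centromere protein Cenpq (3.35 ± 0.20, SE). Kif15 was also higher in dense than in sparse KO cells (1.17 ± 0.27, SE, adjusted p = 0.0206), as were Spdl1 (1.03) and Cenpc1 (0.97). Stil, a centriole assembly factor, had the largest difference between the density responses (3.12 ± 0.54, SE, adjusted p = 0.00227). Fbxo5, an inhibitor of the anaphase-promoting complex, fell most in dense rescue cells (−2.70 ± 0.27, SE, adjusted p = 2.13e-05), ahead of Gtse1 (−2.60) and Pbk (−2.55).

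The lists are given by their counts, and how they differ was not tested. Of 17 subunits and regulators of the anaphase-promoting complex, 7 were higher and 3 lower in dense KO than in dense rescue cells (median 0.37). In rescue cells 6 of these 17 fell and 0 rose with density (median −0.33), where 21% of all genes fell and 19% rose. The share higher in dense KO cells is near the 31.9% of all genes and is no result about this complex. Of 22 other spindle and centrosome genes 19 were higher and 0 lower in dense KO cells (median 1.86), of 18 other checkpoint and outer kinetochore genes 15 and 2 (median 1.80), of 16 other centromere proteins 14 and 0 (median 1.31), of 18 other kinases, phosphatases and cyclins 13 and 2 (median 1.76), of 14 genes of cohesin and condensin II 10 and 0 (median 1.03), and of 8 cytokinesis genes 4 and 1 (median 0.71). Of the 8 genes lower in dense KO cells, the 3 with the largest differences are named here. They were Septin9 (−1.35 ± 0.19, SE, adjusted p = 6.69e-05), Anapc4 (−0.92 ± 0.37, SE, adjusted p = 0.0495) and Zwint, a kinetochore scaffold (−0.86 ± 0.19, SE, adjusted p = 0.0017). Zwint was lower in KO cells in sparse cultures too (−1.97 ± 0.19, SE, adjusted p = 3.14e-06). In sparse cells 27 of the 113 genes were higher and 10 lower in KO cells, where 23.2% of all genes were higher and 25.6% lower. Among them Haus4 (1.79) and Cdc14a (1.64) were higher and Anapc16 (−1.40) and Mad1l1 (−1.09) lower in KO cells. In rescue cells Nek9 (0.75), Stag2 (0.73) and Septin9 (0.63) rose with density.

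DNA replication genes, for comparison, moved in the same directions. Of 33 tested, 31 were higher and 0 lower in dense KO than in dense rescue cells (median 2.06), where 31.9% of all genes were higher and 29.7% lower. All 33 fell with density in rescue cells (median −1.61), where 21% of all genes fell and 19% rose. With density in KO cells 0 were called (median 0.02), where 5.44% of all genes rose and 5.47% fell. At an unadjusted p under 0.05 in the limma fit 1 was higher and 2 lower there. Whether the mitosis genes and the replication genes differ was not tested.

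Markers of other cell types moved with the line. Of 4 mesothelial markers, 4 were well above background on all arrays of both KO groups, and Msln alone was on all arrays of the rescue groups. Wt1 averaged 4.65 in dense KO cells, 4.61 in sparse KO cells, −7.48 in dense rescue cells and −7.63 in sparse rescue cells, and Wt1 and Upk3b were not well above background on any rescue array. Msln ran the other way, with 3.20 in dense KO cells, 3.70 in sparse KO cells, 4.86 in dense rescue cells and 5.01 in sparse rescue cells. The signals of the 4 markers summed to 72.7 to 76.1 times the 75th percentile in dense KO cells, 68.5 to 73.3 in sparse KO cells, 23.2 to 35.9 in dense rescue cells and 23.7 to 41.8 in sparse rescue cells. Of 5 epithelial markers 2 were well above background on all arrays of each group: Krt14 in all 4 groups, with Krt5 in the KO groups and sparse rescue cells and Cdh1 in dense rescue cells. Cldn4 was well above it on 0 arrays and Epcam on 1. The sums of the 5 were 22.5 to 26.7 in dense KO cells, 8.67 to 14 in sparse KO cells, 0.239 to 0.325 in dense rescue cells and 0.851 to 1.82 in sparse rescue cells. Krt14 made up most of each sum, with means of 4.60 in dense KO, 3.54 in sparse KO, −2.43 in dense rescue and 0.10 in sparse rescue cells. Cdh1 ran the other way, with −6.52 in dense KO, −6.33 in sparse KO, −4.29 in dense rescue and −5.32 in sparse rescue cells. The sums therefore do not show that the epithelial list as a whole was higher in KO cells. The sums of 8 fibroblast markers were 295 to 305 in dense KO cells, 267 to 283 in sparse KO cells, 732 to 1107 in dense rescue cells and 780 to 878 in sparse rescue cells. The 4 endothelial markers summed to at most 0.246 and 4 haematopoietic markers to at most 0.415 in any culture, with Pecam1 and Ptprc well above background on 0 arrays. The part of these differences in the result on mitosis genes was not tested.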

How the data were processed

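Each culture was hybridised to 1 one-colour Agilent array. The scanner files hold intensities that the authors extracted with Feature Extraction 10.5.1.1, per the file headers. The submitters' processing notes name Feature Extraction 10. The deposited value table holds log2 values, per its range and its match to the scanner files, with column medians of 8.38 to 8.39; which percentile it was centred on stays unknown, and it was used only in alternatives.

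Processed signals (background-subtracted intensities, per the file headers) were put on the log2 scale and set to 0 at the 75th percentile of their array. Control spots and flagged spots (79 to 265 an array) were left out. No spot was saturated. Of 41174 probes, 24375 had 1 gene and 16799 none by RefSeq accession (GRCm38.p6 gene list); the brightest probe stood for its gene. A probe was kept where it exceeded background well in all 3 cultures of some group, which left 12435 genes.

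All 12 arrays were fitted with limma 3.58.1 (R 4.3.3) on 4 group means, with 5 contrasts and Benjamini-Hochberg adjustment over all genes of a contrast. The script was tested on simulated data. A permutation of 3 against 3 cultures cannot go below p = 0.1, so single genes were not tested that way. The number of arrays limits the precision: the median SE of a difference was 0.258.

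The members, the other gene lists and the promoter letters were chosen with earlier results of these data known. Genes given by array were the largest and smallest dense difference of each role group, 6 fixed genes, and genes that went against the majority or missed the dense threshold; genes given by a difference alone, such as Espl1, were added after values were seen. The replicate number is the experimental day, per the labels; of 18 same-day pairs of arrays, 11 correlated above 0.1 in their deviations from group means (−0.038 to 0.292). Alternatives were normexp correction, quantile, median and spike-in scaling, the deposited table, other filters and probe rules, day or slide as a block, and each array left out. normexp was run on median signals because mean signals were not used here; it and the deposited table without day 3 were chosen after seeing the data.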

Additional observations from a re-analysis of the deposited data

Results flagged for a closer look

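The difference between the density responses of the lines (dense minus sparse in KO cells, minus dense minus sparse in rescue cells, on the log2 scale) passed limma's test for 16 of the 21 genes given by array, and is listed here for that reason. Of all genes tested 11.3% were called positive and 9.47% negative. Many of the 21 genes were chosen by their dense difference between the lines, which is a part of this value, so the count of 16 is no separate result. It was 2.96 for Cdk1, 2.73 for Ube2c, 2.63 for Kif23, 2.59 for Top2a, 2.43 for Plk1, 2.39 for Nuf2, 2.37 for Ccna2 and 2.33 for Mad2l1. It was 2.25 for Spc24, 2.24 for Aurkb, 2.05 for Ect2, 1.83 for Ccnb1, 1.61 for Bub1b, 1.40 for Kif4, 1.34 for Ncapd2 and 1.17 for Ndc80. The largest adjusted p among the 16 were those of Kif4 (0.0405) and Ncapd2 (0.0433), whose tests missed the threshold when most single arrays were left out (values of 1.10 to 1.48 for Kif4 and 1.10 to 1.41 for Ncapd2 where they did). Of these 16 genes, 7 had other kept probes, and in the fit of all probes Ect2 alone had one that was not called (1.00, adjusted p = 0.0894). The second probes gave 1.89 for Cdk1 (adjusted p = 0.0173), 1.35 for Top2a (0.0304) and 1.73 for Ncapd2 (0.00766, beside 0.0518 for its brighter probe in that fit), of which the values for Cdk1 and Top2a were below those of the brighter probes.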

How the results depend on the processing

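In the main fit 48 genes were higher in dense KO than in dense rescue cells and 46 lower in dense than in sparse rescue cells. These counts were 45 and 43 with normexp, where 44.6% and 20.6% of all genes were called in either direction. On the deposited table without day 3 they were 42 and 43 (55.2% and 29.7% of all genes), and on the second probe 16 of 17 each (59.5% and 37.5%). Spike-in scaling gave 48 and 23 (55.9% and 27.6%), and in most other settings they moved little. On the deposited table with its columns as labelled, where day 3 columns match the other line, all counts were 0. At most 0.00805% of all genes were called there in any comparison, so that count is no result about the mitosis genes. The interaction count was 39 in the main fit (20.7% of all genes called in either direction) and 12 of 17 genes on the second probe (18.2%). It was 30 with normexp (6.00%) and 30 on the deposited table without day 3 (11.5%). It was 49 with spike-in scaling, where 86.9% of all genes were called in either direction. In sparse cells the higher and lower counts were 3 and 1 with normexp (29.4% of all genes called in either direction) and 0 and 35 with spike-in scaling (76.1%). They were 7 and 0 on the deposited table without day 3 (41.3%), 6 and 1 on the second probe (48.6%) and 6 and 0 with slide as a block (35.5%). The higher count was 3 with median scaling (46.9%) and the lower count 1 with the mean of probes (51.9%). With density in KO cells the higher count was 1 with median scaling (12.2% of all genes called in either direction), with the filter on all 12 arrays (13.9%) and with slide as a random block (15.2%). It was 49 with spike-in scaling (99.5%). The lower count was 0 with normexp (0.957%), median scaling, spike-in scaling, no filter (5.33%) and the deposited table without day 3 (6.55%). It was 2 with the mean of probes (13.9%) and 3 on the second probe (19.1%). Leaving out each array in turn gave 8 to 12 higher and 1 to 2 lower in sparse cells (42.8% to 50.2% of all genes called in either direction). It gave 46 to 48 higher in dense cells (56.5% to 63.0%). With density it gave 0 to 2 higher and 0 to 1 lower in KO cells (4.13% to 12.9%) and 46 to 47 lower in rescue cells (34.1% to 41.5%). The interaction count was 36 to 44 (15.8% to 20.7%). With day as the replicate block the counts were 12 and 2 in sparse cells (51.6% of all genes called in either direction) and 48 in dense cells (64.1%). They were 0 and 1 with density in KO cells (12.8%), 46 lower in rescue cells (43.1%) and 40 for the interaction (23.8%). Of the calls of genes given by array, the block changed that of Kif4 (interaction 1.40, adjusted p = 0.0552) and no other. With spike-in scaling the sparse differences turned to −0.92 for Mad2l1, −1.15 for Bub1b, −1.10 for Birc5, −1.06 for Cdc25b, −1.46 for Ube2c, −1.36 for Pttg1, −1.54 for Kif23 and for Ndc80, −0.50 for Spc24, −0.54 for Ect2, −1.42 for Hmmr, −0.86 for Ccnb1 and −1.47 for Top2a. The KO density changes turned to 2.95 for Aurkb, 2.27 for Birc5, 3.05 for Ccna2, 3.02 for Cdc25b, 2.97 for Pttg1, 2.59 for Kif4, 3.04 for Ect2, 1.55 for Hmmr, 2.81 for Smc4 and 2.74 for Ccnb1, and the Pttg1 interaction to 1.97. The other values that turned were Hmmr in dense cells (−0.26) and Nuf2 in sparse cells (0.33) on the table as labelled, and Cdk1 in sparse cells (0.88) and Top2a with density in KO cells (−0.95) on the second probe. Median scaling moved the median of all genes to −0.28 in sparse cells, 0.25 with density in KO cells and 0.29 for the interaction. Of 1260 values with 1 array left out, 1205 kept their side of the threshold, 48 lost it, 7 gained it and 0 turned. The cause of these changes was not tested.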
